A study of Oryza sativa Japonica Group with 20 samples.

Results

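The microRNAs of untreated rice seedlings were compared between root and shoot. Members were the miRNAs listed at a value of 20 or more in the untreated root library, the untreated shoot library or both, which took 34 of the 185 miRNAs listed, from 24 families. Of these, 17 reached 20 in both organs, 11 in root only and 6 in shoot only. Values are in RPM, reads scaled to the depth of the library, and each organ was represented by 1 library, so the untreated difference has no replicate check and no p-value. The members nearest the limit were miR167c, miR394 and miR396b, whose higher values were 22.4, 22.5 and 23.1. Just outside it were miR393, miR1862e and miR408, whose higher values were 18.8, 17.2 and 13.2.

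Plant miRNAs are short RNAs cut from hairpin precursors and loaded into ARGONAUTE1, where they guide cleavage or repress translation of mRNAs with nearly complementary sites. Many of the deeply conserved families act on transcription factor genes: miR156 on SPL genes, miR166 on class III HD-ZIP genes, miR319 on TCP genes, miR164 on NAC genes, miR396 on GRF genes, and miR160 and miR167 on auxin response factors. Others act on regulators of the RNA pathway itself, as miR168 does on AGO1. A family comprises several loci whose mature sequences are identical or differ at few bases, so the assignment of reads to a lettered member within a family is uncertain.

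The plants were Nipponbare rice (Oryza sativa), grown hydroponically and 14 days old. Untreated seedlings, sampled at 0 h, were set against seedlings kept for 6 or 24 h in 20 or 80 µM sodium arsenite, and the study asked how transport, hormone and lipid genes respond to arsenite. Each of the 5 conditions gave 1 root and 1 shoot miRNA library and 1 root and 1 shoot mRNA library, 20 libraries in all. The 8 treated miRNA libraries, 4 per organ, were used here only as further root and shoot samples: any arsenite response is part of their spread, and nothing in the labels says that libraries came from separate cultures.

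In 3 treated shoot miRNA files and 2 treated shoot mRNA files the condition code in the header differs from the label; the organ in the header matched the label in every file, as did the condition of the untreated files. Labels were kept throughout. The listed miRNAs summed to 9093.6 in the untreated root and 6640.2 in the untreated shoot, or 0.909% and 0.664% of the reads the values are scaled to, and 140 and 118 of them were above 0. By the spacing of the values, 1 read was worth 0.174 in the root library and 0.207 in the shoot library. Across 5 libraries per organ the sums were 5563 ± 3020 (SD) in roots and 5106 ± 1064 in shoots, a difference within the spread (exact permutation test, two-sided, p = 0.762).

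The organ labels were checked in the mRNA libraries with 5 leaf genes (chlorophyll a/b-binding proteins and the small subunit of Rubisco) and 5 root genes (silicon transporters Lsi1 and Lsi2, iron and manganese uptake genes YSL15, IRT1 and Nramp5). The leaf genes summed to 1342.8 RPKM in the untreated shoot and 167.9 in the untreated root, while treated roots held 9.7 to 36.4 and treated shoots 1593 to 2906. The root genes summed to 295.9 RPKM in the untreated root, 9.5 in the untreated shoot, 3.5 to 84.4 in treated roots and 6.2 to 14.2 in treated shoots. Leaf genes were therefore more abundant in the untreated root than in any treated root, and root genes overlapped between treated roots and shoots. Lsi2 was listed at 0 in all 5 shoot mRNA libraries. Lsi1, YSL15, IRT1 and Nramp5 each overlapped between treated roots and treated shoots. Nramp5 averaged 2.4 RPKM in treated roots and 3.45 in treated shoots, while the other root genes averaged higher in treated roots. No source used here says that mRNA and miRNA libraries came from the same RNA, and the part of these differences in the miRNA values was not tested. In whole organs, fewer cells of a type and less RNA per cell cannot be told apart.

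The 34 members made up 97.5% of the summed miRNA value of the root and 97.2% of that of the shoot. In the root, miR156j was the most abundant miRNA with 24.3% of the sum and miR166n the next with 22.0%. In the shoot, miR168a came first with 25.1% and miR159b second with 13.9%. The 12 most abundant entries held 90.0% of the root sum and 89.0% of the shoot sum, and 8 entries were on both lists. Of the other 151 miRNAs, 28 were listed at 0 in both libraries and 123 lay between 0 and 20.

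**Figure D1:**
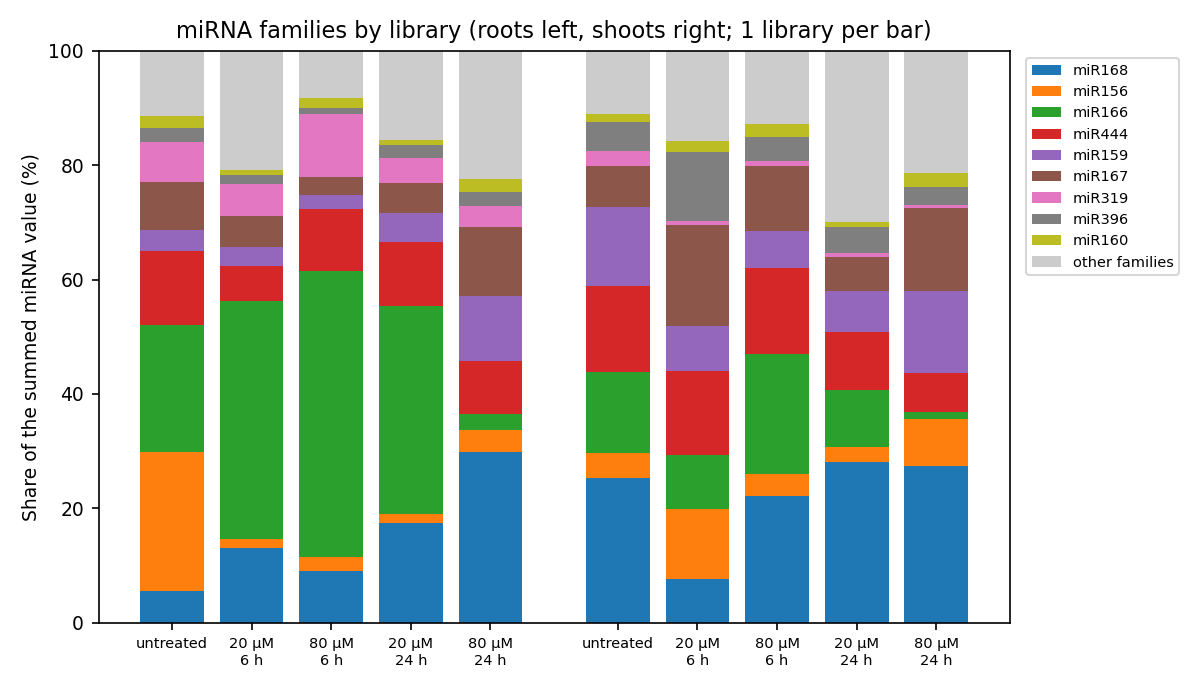
Share of the summed miRNA value (%) held by the same 9 families in each of the 10 libraries. Each bar is 1 library, roots on the left and shoots on the right. The 9 families are those with the largest share in either untreated library. Families large only in a treated library, such as miR812 in the shoot at 20 µM and 24 h, are pooled with the others. miR156 takes 24.3% of the untreated root and miR168 takes 25.3% of the untreated shoot, while miR166 is small in both libraries labelled 80 µM and 24 h.

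On the log2(value + 10) scale, 15 members were at least 2-fold higher in the untreated root, 9 were at least 2-fold higher in the untreated shoot and 10 lay between. These are 44.1% and 26.5% of the members; of all 185 listed miRNAs, 8.11% and 5.95% passed the same limits. A member enters the list through the higher of its values, so these shares describe the list and are not tested. The median shoot minus root log2 difference was -0.58 over the members and -0.01 over all 185 miRNAs. Scaling both libraries to a common sum raised the members' median by 0.33 and gave 12 in the root and 11 in the shoot, and scaling by the median ratio raised it by 0.48 and gave 11 and 12. The split between organs therefore depended on the scaling. None of the 25 named miRNAs changed sign under any scaling, pseudocount or minimum tried that kept it. They were picked for abundance or a large difference in these same values, so a stable sign was favoured. The other members are not covered by that statement, among them miR167c at -0.18. For 33 of 34 members the 95% counting interval of the ratio excluded 1, the exception being miR167c; intervals and floors cover counting error only.

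**Figure D2:**
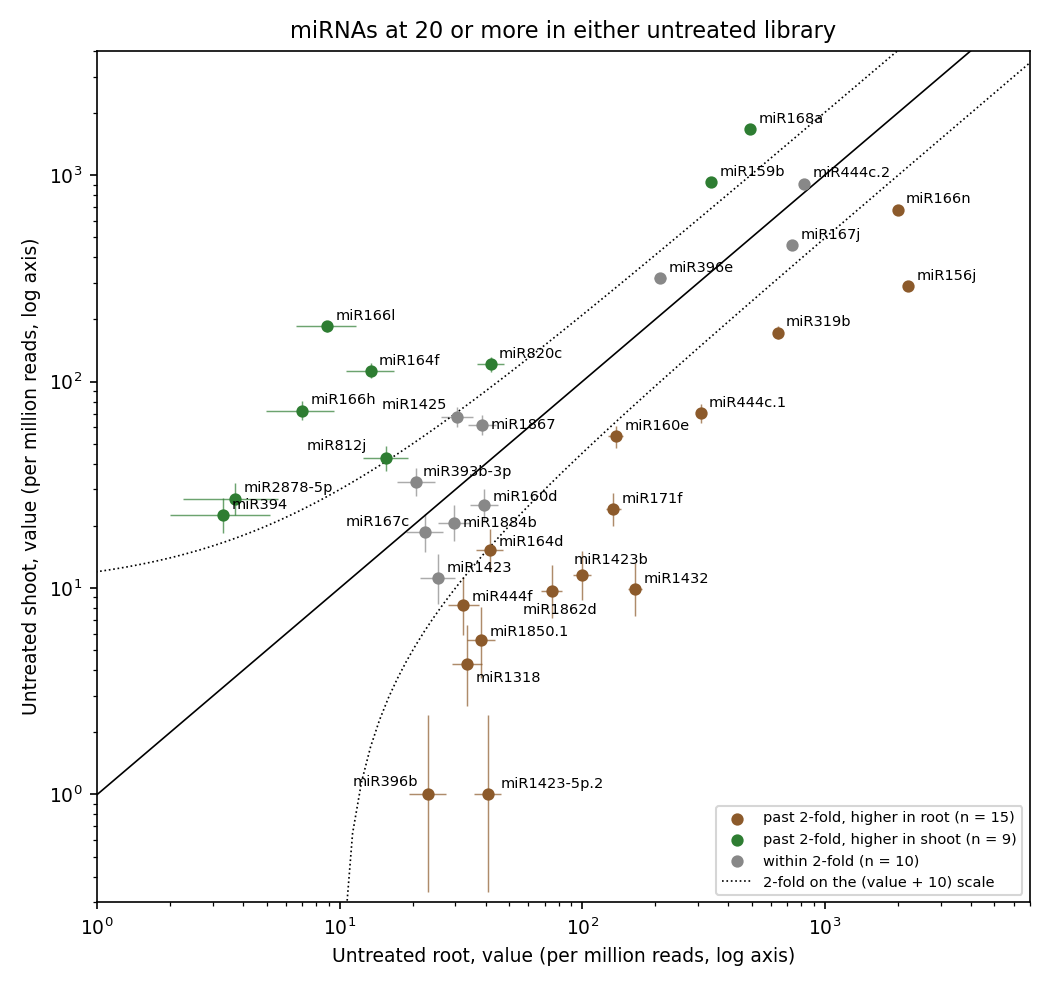
Value of the 34 members in the untreated root (x axis) and the untreated shoot (y axis), both in RPM on log axes, with 95% exact Poisson counting intervals. Brown points are the 15 members at least 2-fold higher in the root, green the 9 at least 2-fold higher in the shoot and grey the 10 between, by (value + 10); miR166l (8.9 and 184.9) and miR1432 (164.7 and 9.9) lie farthest from the diagonal on that scale.

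Among the families that set developmental timing and organ polarity, miR156j, the repressor of SPL genes and of the juvenile-to-adult transition, had a value of 2208.9 in the untreated root and 289.3 in the untreated shoot. The root value was 7.64 times the shoot value (95% counting interval 7.22 to 8.07). It was the only miR156 entry listed. In treated roots its values were 53.2, 92.4, 125.3 and 110.1 (20 µM 6 h, 80 µM 6 h, 20 µM 24 h and 80 µM 24 h, the order used below), and in treated shoots 481.2, 164.4, 141.2 and 427.6. The untreated root thus stood far above all other 9 libraries, and every treated shoot lay above every treated root.

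Summed over 6 listed entries, miR166, which limits class III HD-ZIP genes in leaf polarity and vascular tissue, reached 2023.4 in the root and 945.1 in the shoot. The entry miR166n followed that direction, at 1997.6 and 680.2, whereas miR166l, at 8.9 and 184.9, and miR166h, at 7.0 and 72.2, were higher in the shoot. The shoot value of miR166l was 20.8 times that of the root (15.7 to 28.2). Entries of the same family were therefore highest in different organs.

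The same held within miR164, which acts on NAC genes of organ boundaries: miR164d had 41.6 in the root and 15.3 in the shoot, and miR164f had 13.4 and 112.7. In miR396, which limits the growth-regulating GRF factors, miR396b had 23.1 and 1.0 while miR396e had 208.8 and 317.0. miR396c, which is not a member, had 0.2 and 11.8, about 1 read against 57. The shoot value of miR396b rests on about 5 reads.

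miR319b, which acts on TCP genes of leaf growth, was at 638.9 in the root and 172.7 in the shoot. The root value was 3.70 times the shoot value (3.43 to 3.99). miR171f, which acts on GRAS genes of the meristem, had 134.4 and 24.2. miR394, which in Arabidopsis acts on an F-box gene of the shoot meristem, had 3.3 and 22.5, about 19 reads against 109.

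Families that act on auxin signalling are miR160 and miR167, on response factors, and miR393, on receptors. miR160e had 137.5 in the root and 54.2 in the shoot, miR167j 732.9 and 458.7, and miR393b-3p 20.7 and 32.7. The entry miR393, which is not a member, lay the other way, at 18.8 and 13.9. The suffix of miR393b-3p names 1 arm of its precursor, and whether that arm acts on receptors was not examined. Of these entries, miR160e passed 2-fold, at -1.20 on the log2(value + 10) scale. miR160f, which is not a member either, had 12.6 in the shoot and was listed at 0 in the root.

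miR168a, which acts on AGO1, had 491.6 in the root and 1669.0 in the shoot, a shoot value 3.40 times that of the root (3.25 to 3.55). miR159b, which acts on GAMYB genes of gibberellin response, had 339.3 and 923.8. Both were among the 7 most abundant miRNAs of either organ.

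miR444, a grass family that acts on MADS-box genes, had nearly equal sums of 1170.1 and 988.7, but its entries differed: miR444c.1 had 308.0 in the root and 70.1 in the shoot, miR444f 32.3 and 8.3, and miR444c.2 821.5 and 908.7. miR820c, which in rice acts on a DNA methyltransferase gene and derives from CACTA transposons, had 41.9 and 121.2. Several miRNAs described mainly from rice or grasses were root-high in the untreated pair: miR1432 at 164.7 and 9.9, miR1862d at 74.8 and 9.7, miR1423-5p.2 at 40.9 and 1.0, miR1850.1 at 38.4 and 5.6, and miR1318 at 33.6 and 4.3. The root value of miR1423b was 8.62 times its shoot value of 11.6 (6.55 to 11.6). miR2878-5p, at 3.7 and 27.1, and miR812j, at 15.5 and 42.6, were shoot-high.

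Whether these organ differences recurred was tested in the treated libraries, which the untreated comparison does not use. Over the 47 miRNAs that reached 20 in any of the 10 libraries, limma with the labelled condition as a block called 20 higher in treated shoots (42.6% of those tested) and 6 higher in treated roots (12.8%) at an adjusted p of 0.05. limma estimated no difference in spread between miRNAs beyond the trend with level, so these p-values rest on a spread pooled over all 47; with the spread of each miRNA alone, 4 and 2 were called. Leaving out the pair at 80 µM and 6 h left 12 shoot calls, and leaving out that at 80 µM and 24 h left 13. Blocking by the header codes gave 11 and 2, and median-ratio scaling gave 14 and 10. Of the 47, 13 were not members and reached 20 in treated libraries only. Among these 13, 8 were called toward the shoot and 1 toward the root. Except for miR393, those called reached 20 only in the organ they were called toward. The limit of 20 thus favoured such calls, and the shares over all 47 describe the list.

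Of the 9 members that were shoot-high in untreated plants, 5 were called higher in treated shoots and none in treated roots. Over all 47 miRNAs tested, 42.6% were called toward the shoot, so the count alone is not a result about these members. The 5 were miR166l, miR164f, miR166h, miR2878-5p and miR394, and all 5 were higher in the shoot in 4 of 4 treated pairs. miR166l had 2.8, 4.8, 8.7 and 0.3 in treated roots and 65.6, 147.1, 94.6 and 12.1 in treated shoots, so the organs did not overlap. Its log2 difference was 2.39 ± 0.35 (limma SE, adjusted p = 1.36e-08). miR2878-5p ranged from 1.1 to 4.5 in treated roots and from 12.4 to 35.5 in treated shoots, a difference of 1.42 ± 0.29 (limma, adjusted p = 3.46e-05). miR394 ranged from 0.6 to 8.4 and from 11.6 to 53.5, a difference of 1.32 ± 0.29 (limma, adjusted p = 9.81e-05). The calls of miR2878-5p and miR394 also held with the spread of each miRNA alone, at an adjusted p of 0.0447 in limma's fit without pooling; those of miR164f, miR166h and miR166l were lost there, at 0.0685, 0.0824 and 0.0656.

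The other 4 shoot-high members, miR168a, miR159b, miR820c and miR812j, did not pass. miR168a had 431.1, 349.5, 1494.8 and 866.7 in treated roots and 277.8, 937.9, 1491.2 and 1403.3 in treated shoots, and the organs overlapped throughout. Its log2 difference was 0.37 ± 0.53 (limma, adjusted p = 0.536). miR812j had 775.7 in the shoot at 20 µM and 24 h against 19.4 to 34.9 in the other treated shoots, and 224.3 and 212.2 in both roots at 20 µM against 4.2 and 3.5 in those at 80 µM. Without the pair at 20 µM and 6 h, miR812j was called higher in shoots, at 1.65 (limma, adjusted p = 0.00503). miR159b was called without the pair at 20 µM and 24 h (limma, adjusted p = 0.0178).

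Of the 15 root-high members, 5 were called higher in treated roots: miR319b, miR166n, miR1432, miR164d and miR1318. Over all 47 miRNAs tested, 12.8% were called toward the root. miR319b had 191.9, 418.3, 377.3 and 106.3 in treated roots and 24.6, 39.0, 37.4 and 24.3 in treated shoots, with no overlap. Its log2 difference was -2.62 ± 0.56 (limma SE, adjusted p = 8.18e-05), the largest toward the root. Among the 6 root calls it alone was kept in all 14 pooled fits on the full set of miRNAs. miR166n had 1379.8, 1903.6, 3088.8 and 83.6 in treated roots and 278.4, 653.9, 396.6 and 48.4 in treated shoots. Both libraries at 80 µM and 24 h were far below the rest, and the organs overlapped through that root library alone. The call of miR166n (limma, adjusted p = 0.00398) was lost with no block, at 0.162. miR1432, at -1.68 ± 0.55, lost its call without the pair at 80 µM and 6 h (limma, adjusted p = 0.0732), as did miR164d at the same value. miR1318 lost its call without either pair at 20 µM (0.0621 and 0.0879). With no block, miR1432 and miR1318 also lost their calls (0.0740 and 0.0786). Blocks by the header codes lost miR166n, miR1432 and miR1318 (limma, adjusted p = 0.214, 0.0859 and 0.0682). The same 3 were lost without pooling (0.0824, 0.0685 and 0.136).

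The remaining root-high members with a call, miR156j and miR1862d, lay on the other side: they were root-high in untreated plants and higher in the shoot in 4 of 4 treated pairs. For miR156j the treated log2 difference was 1.44 ± 0.60 (limma, adjusted p = 0.0311), and for miR1862d 1.05 ± 0.41 (limma, adjusted p = 0.0228). Both calls were lost when the pair at 20 µM 6 h, at 80 µM 6 h or at 80 µM 24 h was left out in turn, with adjusted p between 0.0888 and 0.199 for miR1862d and between 0.129 and 0.165 for miR156j. Median-ratio scaling lowered the differences to 0.71 for miR156j and 0.54 for miR1862d (limma, adjusted p = 0.166 and 0.0910). Both calls were also lost with no block (0.0740 and 0.107) and with blocks by the header codes (0.115 and 0.112). miR171f was higher in the root in 4 of 4 pairs, without overlap in any of 5 root and 5 shoot libraries, beside 21.3% of the 47 miRNAs tested. It missed the threshold narrowly (limma, adjusted p = 0.0503). It was called without the pair at 20 µM and 24 h (0.029), with a pseudocount of 1 (0.0434) and with all 10 libraries (0.0253). The fit of all 10 libraries and the comparison of 5 and 5 include the untreated pair that made miR171f a root-high member. Both therefore favoured the root. Common-sum and median-ratio scaling also called it (limma, adjusted p = 0.00376 and 0.00196). Leaving out any other pair did not call it, nor did some other settings, with a limma adjusted p of up to 0.197. The other 7 root-high members were not called; miR1423b, for instance, ranged from 6.1 to 27.7 in treated roots and from 6.1 to 41.4 in treated shoots.

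Of the 10 members within 2-fold in untreated plants, 5 were called higher in treated shoots: miR393b-3p, miR396e, miR167c, miR1884b and miR1867. That share is close to the 42.6% of all tested miRNAs called in this direction, so the count is not a result about these members. miR393b-3p, from the family that acts on auxin receptor genes, had 8.8, 3.8, 22.4 and 25.4 in treated roots and 113.0, 41.4, 83.3 and 130.2 in treated shoots. Its difference of 2.03 ± 0.44 (limma, adjusted p = 8.18e-05) held with the spread of each miRNA alone. The calls of the other 4 were each lost when any of the same 3 pairs was left out. Groups of 4 and 4 treated libraries did not overlap for 11 of the members, beside 38.3% of the 47 miRNAs tested.

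**Figure D3:**
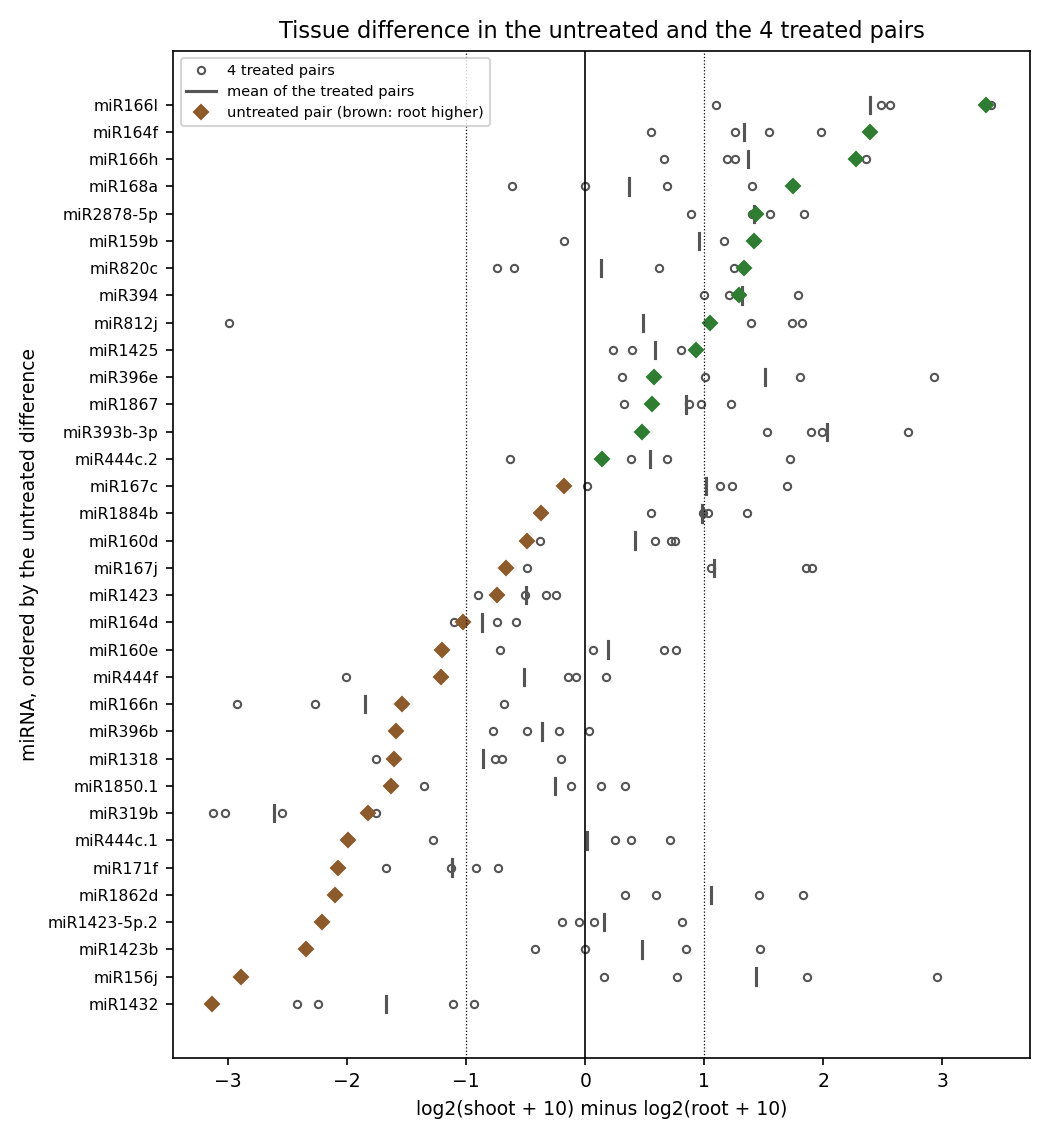
Shoot minus root difference on the log2(value + 10) scale for each of the 34 members, ordered by the untreated pair (filled diamonds), with the 4 treated pairs (open circles) and their mean (bars). miR166l, miR164f, miR319b and miR1432 keep the side of the untreated pair in 4 of 4 treated pairs, while miR156j and miR1862d lie on the other side.

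The change of the organ difference between untreated and treated plants was tested in a fit of all 10 libraries, which takes the spread of treated libraries for that of the single untreated ones. The members were chosen on the untreated values that enter this contrast, so a high untreated value was favoured and the values are a description. limma called 0 of 47 miRNAs (0.0%), and 5 had an unadjusted p below 0.05. Of those 5, miR1423-5p.2 and miR396b reached 20 in the untreated root alone, at 40.9 and 23.1 against at most 9.8 and 7.6 in treated libraries, so their excess there was fixed by the limit of 20 and nothing is read from it. The other 3 were miR1423b, miR156j and miR1862d. For miR156j the organ difference was lower by 4.33 ± 1.34 log2 units in untreated plants (adjusted p = 0.14 in limma). With the 5 conditions as a block, limma called 4; without the shoot library at 80 µM and 6 h it called 3, and without the root library at 80 µM and 24 h 1. These values do not show that the untreated and treated differences are alike.

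Summing entries by family lessens the doubt over lettered members, provided that each read was counted once within its family. The sources used here do not say whether it was. Of 32 families tested, limma called 11 higher in treated shoots (34.4%) and 6 higher in treated roots (18.8%), and with the spread of each family alone 3 and 1. The root calls were miR319, miR390, miR1432, miR1318, miR171 and miR166. Of the families called, miR390 reached 20 in treated roots only, and miR172, miR2873 and miR408 in treated shoots only, so the limit favoured their calls. Entries of miR396 summed to 41.8 to 190.8 in treated roots and 166.8 to 480.6 in treated shoots. miR393 had 7.6 to 39.8 and 58.0 to 255.5, a difference of 2.14 ± 0.44 that held without pooling (limma, adjusted p = 0.0252). Leaving out the pair at 80 µM and 6 h left 4 shoot and 3 root calls among families, that at 20 µM and 6 h 7 and 2, that at 80 µM and 24 h 5 shoot calls, and that at 20 µM and 24 h 3 root calls.

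The make-up of a family was compared directly as the share of its sum held by its most root-biased member, in the 7 families with 2 or more members. The entry was picked in the untreated pair and tested in the treated libraries. miR166n held 98.7% of the miR166 sum in the untreated root and 72.0% in the untreated shoot. In treated roots it held 98.9%, 98.7%, 98.8% and 97.7%, and in treated shoots 74.5%, 73.1%, 73.3% and 70.2%, although the miR166 sum itself ranged from 85.6 to 3127 in those roots and from 68.9 to 894.7 in those shoots. The organs did not overlap.

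miR164d held 67.3% of miR164 in the untreated root and 12.0% in the untreated shoot, and 67.0% ± 7.36 and 12.3% ± 3.68 (SD, n = 4 each) in treated roots and shoots. miR396b held 9.94% and 0.303% of miR396, and 4.56% ± 1.09 and 0.203% ± 0.170 in the treated organs. For these 3 families the exact permutation test over 4 and 4 treated libraries gave p = 0.0286, the smallest it allows, and 0.0667 after adjustment over the 7 families, so none passed the adjustment. For miR1423, miR160, miR167 and miR444 the treated organs overlapped. Reads that fit several members could have been assigned by a rule not given in the sources used here, and its part in these shares was not tested.

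**Figure D4:**
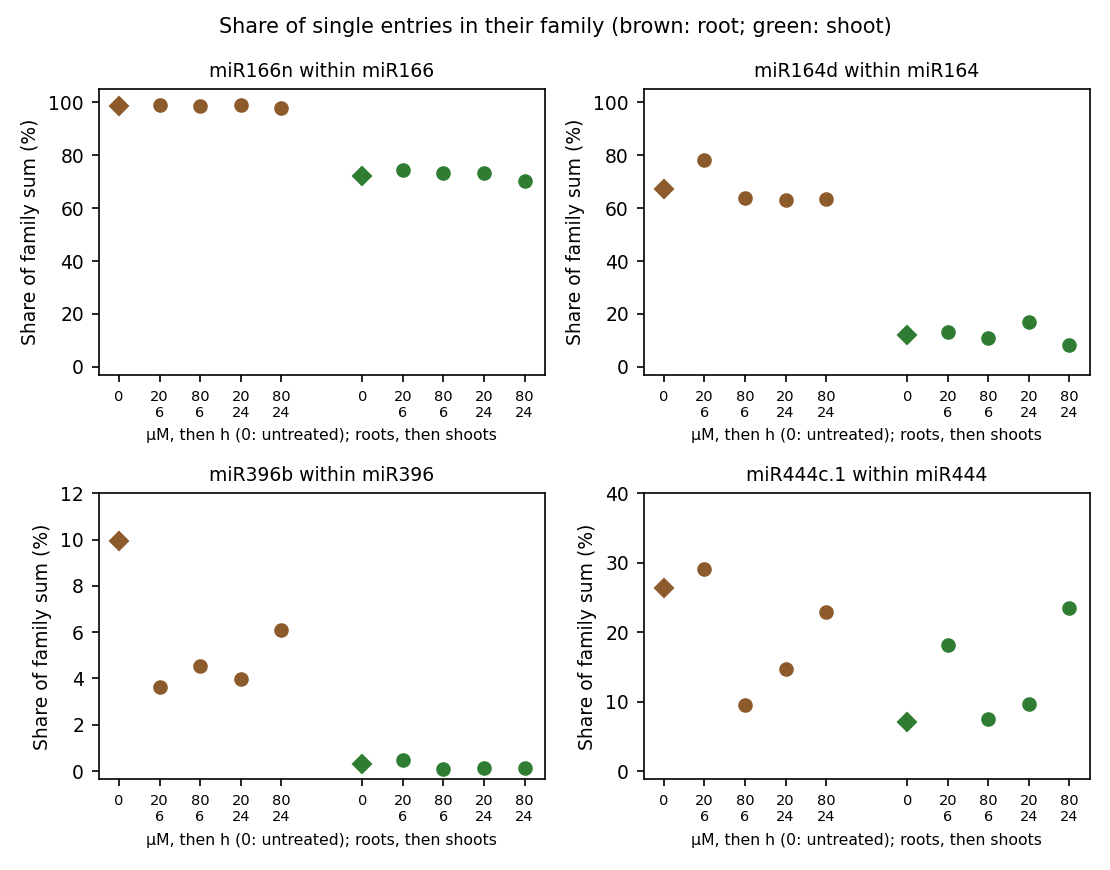
Share of the family sum (%) held by miR166n, miR164d, miR396b and miR444c.1 in 5 root (brown) and 5 shoot (green) libraries; diamonds are untreated, circles treated, and axis labels give µM arsenite and h. The shares of miR166n, miR164d and miR396b do not overlap between organs, and those of miR444c.1 do.

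Some entries were listed at 0 throughout an organ. miR160f was at 0 in all 5 roots and between 7.0 and 20.5 in shoots, with 12.6 in the untreated shoot. miR1429-5p was at 0 in all roots and at most 5.2 in shoots. In the other direction miR164e was at 0 in all 5 shoots and between 1.2 and 6.3 in roots, and miR171h was at 0 in shoots and at most 0.8 in roots. None of the 4 was a member.

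The mRNAs of genes known as targets of these and other miRNA families were read in the mRNA libraries, 70 loci in all, of which 47 reached 5 RPKM (reads scaled to transcript length and library depth) in an untreated library. In the untreated pair 9 of the 47 were at least 2-fold higher in the shoot and 7 in the root on the log2(RPKM + 1) scale, beside 21.1% and 20.8% of the 15366 genes at 5 RPKM. In treated libraries 56 were tested, and limma called 14 higher in shoots and 3 in roots, beside 16.0% and 12.4% of 18647 genes. Without the pair at 80 µM and 6 h, 7 were called in shoots. Loci with no symbol in the reference annotation are counted here and not named.

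Both TCP genes of miR319 at 5 RPKM were higher in the untreated shoot, where miR319b was lower. PCF5 had 5.9 RPKM in the untreated root and 22.7 in the untreated shoot. In treated roots it had 4.2, 0.0, 3.8 and 0.0, and in treated shoots 20.0, 38.2, 17.4 and 0.7, a log2 difference of 2.50 ± 0.68 (limma, adjusted p = 0.0165). PCF6 had 1.4 and 5.8 RPKM in the untreated pair, and its treated difference was 1.66 ± 0.57 (limma, adjusted p = 0.0481). The call of PCF6 was lost when any of the 4 pairs was left out (limma, adjusted p between 0.0706 and 0.16), and that of PCF5 without the pair at 80 µM and 6 h (0.0623).

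MADS27, a MADS-box gene of root growth in rice and a target of miR444, had 5.7 RPKM in the untreated root and 0.4 in the untreated shoot. In treated roots it had 9.2, 14.3, 10.0 and 13.9, and in treated shoots 1.0, 0.5, 0.6 and 0.0. Its difference was -3.09 ± 0.51 (limma, adjusted p = 0.000884). In the untreated root miR444c.1 was also higher, at 308.0, but miR444c.2, the most abundant entry, was at 821.5 and 908.7, and in treated libraries the log2 difference of miR444c.1 was 0.02 ± 0.53 (limma, adjusted p = 0.977).

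The GRF targets of miR396 differed in direction among themselves. GRF3 had 0.2 RPKM in the untreated root and 16.1 in the untreated shoot, and at most 0.3 in treated roots against 10.6, 17.9, 9.6 and 2.4 in treated shoots (3.14 ± 0.60, limma, adjusted p = 0.00222). GRF10 had 1.2 and 7.7 in the untreated pair. GRF5, at 5.6 and 2.0, and GRF6, at 20.4 and 5.6, were higher in the untreated root, and neither passed in treated libraries (limma, adjusted p = 0.605 and 0.0746).

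Of the 4 AGO1 genes, targets of miR168, AGO1a had 22.5 RPKM in the untreated root and 9.2 in the untreated shoot, the organ with the higher miR168a. AGO1b had 11.4 and 10.7, AGO1c 5.0 and 5.2, and AGO1d 6.9 and 5.6. None of the 4 was called in treated libraries. The HD-ZIP III gene HB2, a target of miR166, had 4.7 and 9.3 RPKM untreated, and 1.3 to 2.8 in treated roots against 8.2 to 20.4 in treated shoots (2.40 ± 0.50, limma, adjusted p = 0.00402). HB1 had 5.9 and 6.9 and was not called. The miR166 targets with no symbol lay the other way in the untreated pair, at 9.1 and 4.5 RPKM and at 23.7 and 14.9, and were not called.

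All 8 auxin response factor targets of miR160 and miR167 were within 2-fold in the untreated pair. ARF8 had 30.6 RPKM in the root and 17.2 in the shoot, ARF6 21.3 and 18.5, and ARF17 17.1 and 17.8. In treated libraries ARF18 (miR160), ARF12 and ARF17 (miR167) were called higher in shoots, at 1.87, 1.95 and 1.59 (limma, adjusted p = 0.0187, 0.0186 and 0.0441). Without the pair at 80 µM and 6 h these calls were lost for ARF18, ARF12 and ARF17 (limma, adjusted p = 0.0671, 0.066 and 0.183). The call of ARF17 was also lost without either pair at 20 µM (0.0952 and 0.142), and its difference ranged from 1.14 to 2.18. SPL2, a target of miR156, had 8.0 and 18.1 RPKM, and SPL12 had 13.3 and 8.9; neither was called. Of 5 miR156 targets tested, 1 with no symbol was called higher in treated shoots (limma, adjusted p = 0.0226). That call was lost without the pair at 80 µM 6 h, 20 µM 24 h or 80 µM 24 h.

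**Figure D5:**
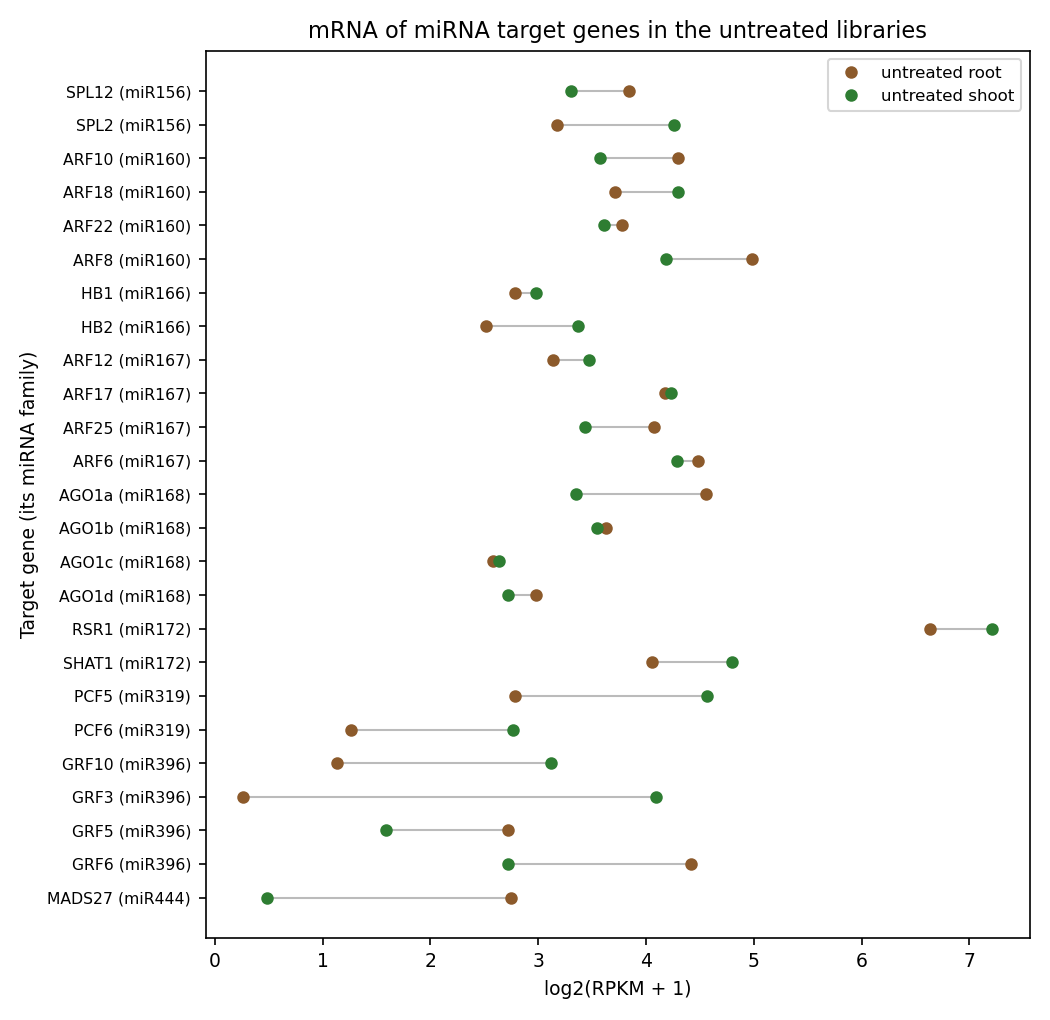
mRNA level on the log2(RPKM + 1) scale of the target genes with a symbol in the reference and at least 5 RPKM in an untreated library, in the untreated root (brown) and untreated shoot (green), 1 library each, with the miRNA family in parentheses. GRF3 (0.2 and 16.1 RPKM) and MADS27 (5.7 and 0.4 RPKM) are the farthest apart in the respective directions.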

How the data were processed

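The deposited miRNA tables list 185 mature miRNAs per library. Their values are RPKM per the file names, but within each untreated library all values are whole multiples of 1 step within a rounding tolerance of 0.05, whatever the miRNA, so the values as deposited by the authors were read as RPM, scaled to library size by an unstated step. Counting intervals (95%, exact) use the largest such step; no count model was run. The deposited mRNA tables give RPKM per gene for 57624 loci. The submitters' processing notes name BWA; for its version, the genome build and the small-RNA library protocol, the sources used here give nothing.

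log2(value + 10) was used for miRNAs and log2(RPKM + 1) for mRNAs. In R 4.3.3, limma 3.58.1 with a variance trend over mean level, and Benjamini-Hochberg adjustment over all features tested, compared 4 treated roots with 4 treated shoots, with 4 labelled conditions as blocks (3 residual degrees of freedom); it was tested on simulated data. Genes needed 5 RPKM in a library. Single values were compared by exact permutation in Python 3.11.15 with numpy 2.4.6, and counting intervals came from scipy 1.17.1. Named miRNAs are the 12 highest in each untreated library and the 12 largest differences each way, and named targets belong to their families. Target symbols were matched to a RefSeq annotation with 39 of 70 found. Mature sequences were not used here. The members, target and marker lists were chosen with earlier results of these data known.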

Additional observations from a re-analysis of the deposited data

How the results depend on the processing

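Replicate numbers could pair no libraries, since each group holds 1 library; roots and shoots were paired by labelled condition, as the block of the treated tests. Untreated split (9 shoot, 15 root): 5 and 8 with a pseudocount of 50, and 5 and 8 with a minimum of 100. Treated miRNAs (20 shoot, 6 root): with median-ratio scaling 10 root calls, with no minimum 13 root, with a minimum of 100 6 shoot and 3 root, with no block 2 root, with header-code blocks 11 and 2, without pooling 4 and 2. Leaving out a condition gave 12 to 21 shoot and 4 to 6 root calls. Of the 26 calls, the sign was the same under every one of these settings that kept the miRNA. Families (11 shoot, 6 root): with median-ratio scaling 7 shoot, with a minimum of 100 4 shoot, with no block 6 and 1, with header-code blocks 3 and 1, without pooling 3 and 1, without pooling in all 10 libraries 6 and 3, and 4 to 13 shoot and 2 to 4 root calls when a condition was left out. The change of the organ difference (0 called): 1 with a pseudocount of 50, 4 with no minimum, 4 with a block of 5 conditions, and 0 to 3 when a treated library was left out. Target mRNAs (14 shoot, 3 root): 5 root with all 10 libraries, and 7 to 11 shoot when a condition was left out. The summed value differed by -457 in shoots and by -1118 to 425 without a library. Over all 10 libraries, the shares of miR166n, miR164d and miR396b gave an exact permutation p of 0.00794, adjusted 0.0185, but these include the pair that picked the entries. The cause of these changes was not tested. Header-code blocks, fits without pooling, scaling without miR156 and the family shares were chosen after seeing the data. With 1 library per condition, depth gives no bound on biological spread, and values under about 5 reads, as of miR396b in the shoot, are imprecise.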
